A study of Homo sapiens with 24 samples.

Results

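The transcripts held by the Argonaute protein AGO2 in LNCaP cells given miR-130a were compared with those held by AGO2 in cells given a scramble microRNA. LNCaP is an established line from a human prostate cancer that depends on androgen, and its tumour stage is labelled early. The comparison was chosen by the titles of the arrays and rests on 6 of the 24 arrays of the series, 3 for AGO2-bound RNA after miR-130a and 3 for AGO2-bound RNA after scramble. Each microRNA, the scramble included, was supplied from 2.5 µg of plasmid DNA by nucleofection, a form of electroporation, in cells kept in RPMI medium with fetal calf serum. AGO2 with its RNA was then taken by co-immunoprecipitation with the antibody 11A, and 2 µg of RNA went onto each oligonucleotide array. Total RNA of the same transfections (3 arrays each for miR-130a and scramble) and AGO2-bound RNA after miR-203 and after miR-205 (3 arrays each) were used to place the changes. Values are log2 levels of a probe set, so that a difference of 1 is a doubling. A gene was called where its limma test gave a Benjamini-Hochberg adjusted p under 0.05 over the 6782 genes tested. The labels call the arrays biological replicates and name no separate cultures. A p-value here therefore reflects only how far these arrays vary, which may be technical.

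A microRNA guides an Argonaute protein to messenger RNAs that pair with its seed, the bases near its 5′ end, and the bound transcript is usually destabilised or translated less. RNA that comes down with AGO2 is therefore used to find direct targets of a microRNA that has been put back into cells. Its composition also follows that of the cell's RNA. Epithelial cells that sense foreign nucleic acid make interferon beta, which acts through JAK kinases and STAT and IRF factors to switch on antiviral genes.

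The sequences below, from RefSeq on GRCh38.p14 with the seed (bases 2 to 8) in capitals, give the 5p arm of the microRNA of the comparison, relatives of its 3p arm, and the microRNAs of the transfections set beside it. MIR130A yields miR-130a-3p, whose sequence is not shown here, and miR-130a-5p, which lies at chr11:57641212-57641233 on the plus strand.
miR-130a-5p: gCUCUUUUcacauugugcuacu
miR-130b-3p: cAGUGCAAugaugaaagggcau
miR-301a-3p: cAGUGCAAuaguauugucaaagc
miR-301b-3p: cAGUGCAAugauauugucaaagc
miR-454-3p: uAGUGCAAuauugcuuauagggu
miR-203a-3p: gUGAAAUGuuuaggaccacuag
miR-205-5p: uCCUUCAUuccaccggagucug
The members shown of the family of miR-130 and miR-301, miR-130b-3p, miR-301a-3p, miR-301b-3p and miR-454-3p, carry 1 seed. The seeds of miR-203a-3p and miR-205-5p differ from it and from each other.

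The AGO2-bound arrays had a median SD over genes of 0.18 after miR-130a and 0.17 after scramble, against 0.10 and 0.13 in total RNA. The lowest value was 2.344895 on the miR-130a arrays and 2.347327 on the scramble arrays. Whether the 2 sets were normalized apart is not given in the sources used here, and an offset between the sets cannot be told apart from the transfection. The median over all genes differed by -0.05 between the AGO2-bound groups and by 0.01 between the total RNA groups. The 3′ probes of ACTB exceeded its 5′ probes by 2.55 ± 0.30 (SD, n = 3) after miR-130a and 3.40 ± 0.45 after scramble, a measure of RNA integrity or labelling whose part in the results was not tested. Of the markers on the array, 0 of 7 luminal prostate markers lay at the floor, while 5 of 7 basal, 9 of 10 leukocyte, 5 of 11 stromal and 6 of 8 endothelial markers lay at the floor on all 6 arrays. The mean level of the leukocyte markers was 2.70 to 2.78 after miR-130a and 2.75 to 2.81 after scramble, and that of the luminal markers 7.66 to 7.74 and 7.32 to 7.69.

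Over all 6782 genes, 1259 were higher (18.6%) and 1350 lower (19.9%) in AGO2-bound RNA after miR-130a. At least 2-fold, 520 were higher and 390 lower, and at least 4-fold, 124 and 77. The largest rises were transcripts of the interferon response, led by IFIT1, CCL5, OASL, IFIT2 and CXCL10. ACAA1 and NUDT9, further down among the 15 largest rises, were lower in total RNA. Of the 1259 rises, 15.2% were lower in total RNA and 20.3% higher, against 13.3% and 15.9% of all genes. The largest falls were of STAM, SMIM7, PFDN2, WASHC5 and CCNG1, whose levels after scramble stood far above those in the other AGO2-bound groups. In total RNA of the same transfections 1081 genes were higher (15.9%) and 903 lower (13.3%). That split depends on the scaling: with quantile normalization 906 were higher and 1142 lower in total RNA, and median centring of the arrays gave 872 and 1217.

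**Figure D1:**
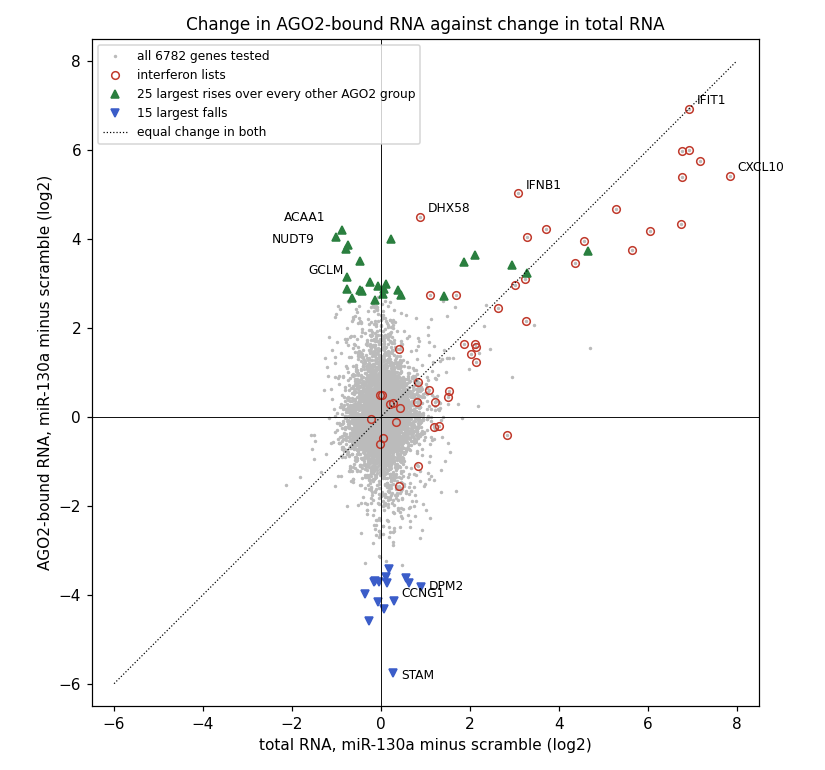
Each point is 1 of the 6782 genes, with its change in total RNA (x axis, log2) and its change in AGO2-bound RNA (y axis, log2), miR-130a minus scramble, means of 3 arrays each. Interferon-list genes reach up to 6.93 on the y axis, at IFIT1, which has the same value on the x axis. CXCL10 lies further along the x axis and below the dotted line of equal change, and IFNB1 and DHX58 lie above that line. ACAA1 and NUDT9 lie above 4 on the y axis and below 0 on the x axis. The 15 largest falls lie between -3.43 (ETS2) and -5.76 (STAM) on the y axis, with total RNA changes between -0.37 and 0.91.

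Many transcripts of the interferon system rose in AGO2-bound RNA after miR-130a, and a minority did not. The 6 interferon lists hold 76 genes on the array, of which 48 passed the filter on low values (a mean of at least 2.85 over the 24 arrays) and were tested. In a fit of all 11963 genes with no filter, 40 of the 76 were higher and 2 lower (52.6% and 2.6%), with a median change of 0.49, where 11.0% of all genes were higher and 11.4% lower. Of the 28 genes that did not pass, 12 lay at the floor on all 6 arrays. Of the 48 tested, 32 were higher, 4 lower and the others not called. Of these, 5 passed only through their level after miR-130a, so that the count over the 48 favours rises. With the filter taken on the arrays of the other transfections, an alternative chosen after the values were seen, 43 remained, 27 higher and 4 lower (62.8% and 9.3%, median 1.42, against 18.3% and 20% of all genes passing that filter). In total RNA 41 of the 48 were higher and 0 lower, and of the 43 genes 36 were higher (83.7%). Over all 6782 genes 15.9% were higher and 13.3% lower in total RNA. More cells with such a transcript and more of it per cell cannot be told apart in these bulk samples. The 4 falls became 1 without scramble replicate 2, and 2 without miR-130a replicate 2 or 3 or scramble replicate 3. The earlier results of these data already showed the interferon genes high after miR-130a, so the counts describe the members and are no independent evidence.

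The sensors of viral RNA and the interferon they induce were among the most changed. IFNB1, interferon beta itself, read 7.59, 7.55 and 6.99 after miR-130a and 2.35, the floor, on each scramble array. The rise was thus at least 32.6-fold (log2 change at least 5.03, SE 0.15, adjusted p = 6.1e-11), and the arrays did not overlap. After miR-203 and miR-205 IFNB1 lay at 2.37 and 2.35, near the floor. DHX58, also called LGP2, a helicase that binds viral RNA, read 6.45, 7.27 and 6.83 against the floor on the scramble arrays, at least 22.6-fold higher (adjusted p = 4.4e-10). The filter on low values favours genes that are high after miR-130a and at the floor elsewhere. The p-values of IFNB1 and DHX58 therefore describe these arrays and are no independent evidence of a rise. RIGI, which detects RNA with a 5′ triphosphate, read 5.79, 6.42 and 6.47 after miR-130a and 2.54, 2.54 and 2.37 after scramble, a change of 3.74 (SE 0.20, adjusted p = 7.2e-09). IFIH1, or MDA5, a sensor of long double-stranded RNA, rose by 2.95 (SE 0.21). The adaptors and the kinase between sensor and interferon gene did not rise in AGO2-bound RNA. MAVS changed by -0.11 (adjusted p = 0.67) and TICAM1 by -0.05 (adjusted p = 0.88). TBK1 fell by 0.49 (adjusted p = 0.038), a call lost with any of 5 of the 6 arrays left out. In total RNA 5 of the 7 sensor and interferon genes tested, a list that includes MAVS, TICAM1 and TBK1, were higher and 0 lower. The rises are 71.4%, against 15.9% of all genes tested.

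The antiviral effectors, proteins that block viral RNA or its translation, numbered 21 genes on the array and 14 tested, of which 10 rose and 1 fell. These are 71.4% and 7.14%, against 18.6% and 19.9% of all genes tested, and the filter favours rises. IFIT1, which binds foreign RNA caps, read 10.30, 10.55 and 10.32 on the miR-130a arrays and 2.82, 3.60 and 3.94 on the scramble arrays. This was the largest rise of any gene tested, 6.93 (SE 0.31, adjusted p = 1.3e-09), or 122-fold higher. IFIT1 also stood at 6.23, 6.80 and 5.51 in AGO2-bound RNA after miR-203, between the other groups, and at 2.73, 3.27 and 2.79 after miR-205. IFIT2 and IFIT3 of the same family rose by 5.75 and 5.40, and IFIT5 by 1.23. OASL, related to the synthetases that activate RNase L, read 9.13, 9.34 and 8.89 against 2.93, 3.16 and 3.35, a rise of 5.97 (SE 0.30). The synthetases OAS1 and OAS3 rose by 3.46 and 1.56. RSAD2, viperin, rose at least 18.0-fold from the floor. ISG20 and GBP1 rose by 2.74 and 2.46.

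A few effectors did not follow. EIF2AK2, the kinase PKR, read 4.30, 3.69 and 3.95 after miR-130a and 4.08, 4.16 and 4.36 after scramble, which overlap (change -0.22, adjusted p = 0.29), while it rose by 1.20 in total RNA (adjusted p = 5.4e-06). ZC3HAV1, which binds viral RNA, changed by -0.22 in AGO2-bound RNA (adjusted p = 0.29), while the mean of its 2 probe sets rose by 0.47, and it rose by 1.31 in total RNA. SAMHD1 changed by 0.34 (adjusted p = 0.086), was called higher with the replicate block, and rose by 1.21 in total RNA. TRIM5 fell by 1.55 in AGO2-bound RNA (adjusted p = 1.4e-05) and rose by 0.41 in total RNA.

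Of the ubiquitin-like modifier ISG15 and its enzymes, 6 are on the array and 4 were tested, each of which rose. In the fit with no filter 5 of the 6 were higher and 0 lower, against 11.0% and 11.4% of all genes. ISG15 read 10.04, 10.17 and 10.29 after miR-130a and 6.30, 5.79 and 6.26 after scramble, a rise of 4.05 (SE 0.22, adjusted p = 1.1e-08). HERC5, its ligase, rose by 4.68, the related HERC6 by 1.42 and the protease USP18, also on the signalling list, by 1.64. Of 13 secreted products on the array, 4 were tested and rose. With no filter 6 of the 13 were higher and 0 lower, and the median change was 0.02. CCL5 read 8.25, 9.43 and 8.77 against 2.50, 2.96 and 3.00 (change 5.99, SE 0.41), and its 2 probe sets rose by 5.99 and 5.83. CXCL10 read 9.47, 9.82 and 9.81 against 4.05, 4.54 and 4.25 (change 5.42, SE 0.24). CXCL11 rose at least 20.1-fold from the floor, and TNFSF10, the death ligand TRAIL, rose by 4.23.

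Of 9 small interferon-induced proteins on the array, 7 were tested, and 5 of these rose and 0 fell. The rises are 71.4% of the 7, against 18.6% of all genes tested, and the filter favours rises. IFI44 rose by 3.95 and IFITM1 by 2.15, while IFITM2 and IFITM3, membrane proteins that hinder viral entry, rose by 0.78 and 0.61. Without scramble replicate 2 the count was 3 of 7. IFI6 went another way. It read 8.14, 7.75 and 7.64 after miR-130a and 8.47, 8.78 and 7.51 after scramble, groups that overlap (change -0.41, adjusted p = 0.57), against 4.43, 4.15 and 3.07 after miR-205. In total RNA IFI6 rose by 2.83, and the 2 changes differed by -3.24 (adjusted p = 6.4e-05).

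Signalling genes moved less evenly than the response genes. Of 17 receptor, JAK-STAT and IRF genes on the array, 13 were tested, and 6 of these rose and 2 fell. That is 46.2% and 15.4%, against 18.6% and 19.9% of all genes tested, and the filter favours rises. IRF9, the DNA-binding part of the factor ISGF3, read 8.61, 8.30 and 7.44 against 5.33, 5.31 and 4.44, a rise of 3.09 (SE 0.42, adjusted p = 5.1e-05). IRF1 rose by 2.73, the feedback inhibitor SOCS1 by 1.52, IRF7 by 0.59 and the kinase TYK2 by 0.49. IRF3, which switches on the interferon beta gene and is regulated at the protein level, changed by 0.21 (adjusted p = 0.28). The interferon gamma receptor chains IFNGR1 and IFNGR2 fell by 1.10 and 0.61; the call was lost for IFNGR1 without scramble replicate 2 or 3 and for IFNGR2 without miR-130a replicate 2 or 3 or scramble replicate 2. IFNGR1 rose by 0.84 in total RNA.

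**Figure D2:**
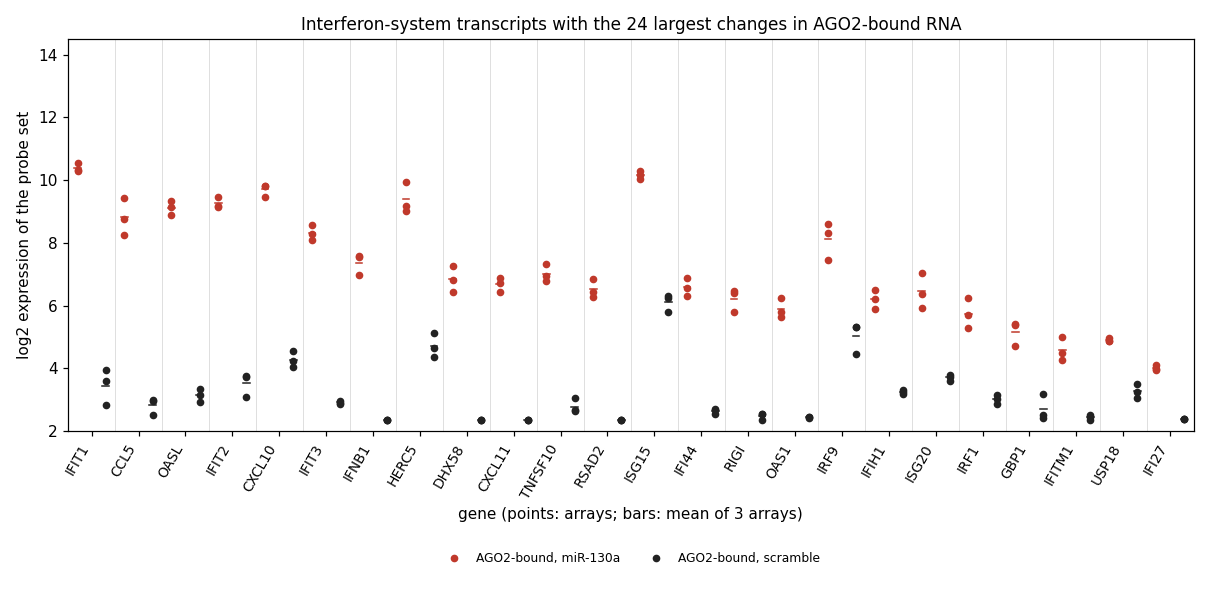
Log2 level of the probe set (y axis) on each AGO2-bound array for the 24 interferon-list genes with the largest changes (x axis), with points for the 3 miR-130a and 3 scramble arrays and bars for the means. In each of the 24 the miR-130a arrays lie above the scramble arrays, from IFIT1 with a change of 6.93 to IFI27 with at least 1.63. The 24 were picked by this change, so the gap follows from the choice. The 2 groups did not overlap, in either direction, in 51.7% of all genes tested.

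The interferon transcripts did not enter AGO2-bound RNA in equal proportion to their change in the cell. The change in AGO2-bound RNA exceeded the change in total RNA for 7 of the 48 (adjusted p under 0.05, interaction in a fit of all 24 arrays) and fell short of it for 19. Over all genes 16.2% exceeded and 18.4% fell short. IFIT1 rose by 6.93 in each kind of RNA, with an SE of the difference of 0.34. CXCL10 rose by 7.85 in total RNA and 5.42 in AGO2-bound RNA (difference -2.43, SE 0.27, adjusted p = 1.3e-07), and the same difference was -1.90 for RIGI. CXCL11 and RSAD2 differed by -2.41 and -1.88 as measured. DHX58 went the other way, with total RNA at 3.12, 3.30 and 3.28 after miR-130a and a rise there of at least 0.89, against at least 4.50 in AGO2-bound RNA (difference 3.61, SE 0.19, adjusted p = 5.1e-13). IFNB1 and IRF1 exceeded their total RNA change by 1.95 and 1.62. The AGO2-bound scramble arrays lay at the floor for CXCL11, RSAD2, DHX58 and IFNB1. Their AGO2-bound changes are lower bounds, and their differences from the total RNA change have no exact size.

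Promoters of these genes were searched for the core of the interferon-stimulated response element, the site of ISGF3 and IRF factors, because many of their transcripts rose. The pattern was GAAANNGAAA on either strand in the RefSeq promoters (250 bases before to 50 after the start, GRCh38.p14), and matches may overlap. It was present in 16 of 25 interferon-list genes that rose in AGO2-bound RNA and have a promoter in the table (64.0%), and in 3 of 13 that were not called higher (23.1%). Of all 27305 promoters 3.65% hold it, and of the 5717 promoters of genes tested 2.96%. Among tested genes with a promoter in the table, 66.7% of the antiviral effectors and 83.3% of the small interferon-induced proteins hold it. Of the receptor, JAK-STAT and IRF genes 12.5% do. EIF2AK2, IFI6 and TRIM5, the 3 not called higher that hold it, rose in total RNA. The shares thus also follow which list a gene came from, and do not link the pattern to the rise. The promoters of IFIT1 (chr10:89392373-89392672, plus strand), ISG15 (chr1:1013247-1013546, plus strand) and CXCL10 (chr4:76023448-76023747, minus strand) are shown, 5′ to 3′ along each gene, with the matches in capitals.
IFIT1: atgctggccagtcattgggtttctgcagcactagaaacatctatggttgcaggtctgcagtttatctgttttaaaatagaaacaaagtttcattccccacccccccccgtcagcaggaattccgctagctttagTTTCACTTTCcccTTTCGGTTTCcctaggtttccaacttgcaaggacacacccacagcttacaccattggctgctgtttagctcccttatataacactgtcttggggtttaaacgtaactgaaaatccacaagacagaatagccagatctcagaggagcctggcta
ISG15: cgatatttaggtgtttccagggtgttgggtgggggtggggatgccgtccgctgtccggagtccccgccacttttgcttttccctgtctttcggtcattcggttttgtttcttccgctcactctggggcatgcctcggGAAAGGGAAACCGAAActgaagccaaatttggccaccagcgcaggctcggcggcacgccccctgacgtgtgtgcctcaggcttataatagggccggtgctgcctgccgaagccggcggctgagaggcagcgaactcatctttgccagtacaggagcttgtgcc
CXCL10: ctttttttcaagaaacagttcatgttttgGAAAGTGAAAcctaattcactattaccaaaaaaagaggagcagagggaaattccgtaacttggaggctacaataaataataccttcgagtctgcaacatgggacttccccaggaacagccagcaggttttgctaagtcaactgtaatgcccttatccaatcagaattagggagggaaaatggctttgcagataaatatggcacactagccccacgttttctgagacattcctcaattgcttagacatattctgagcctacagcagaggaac
IFIT1 has 2 matches on the opposite strand close to each other, ISG15 has 2 that overlap, and CXCL10 has 1 far from its start. In the IFNB1 and RIGI promoters this spelling was not found, which says only that these letters are not in that window. A match is a description of the sequence and not evidence that a factor was bound.

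Targets of NF-kB, the factor that acts with IRFs on the interferon beta gene, rose in 4 of 7 genes tested, of 11 on the array, with 0 falls (median 0.65). Over all genes tested 18.6% rose and 19.9% fell. TNFAIP3, the inhibitor A20, read 6.32, 7.06 and 6.88 against 4.91, 5.57 and 5.23 (change 1.52, SE 0.23, adjusted p = 0.00012), and NFKBIA rose by 0.91. Of 12 MHC class I genes tested, 3 rose (25%, near the 18.6% of all genes), HLA-F by 0.87, HLA-B by 0.73 and HLA-E by 0.56, and 0 fell. With the replicate block 5 rose, without scramble replicate 3 there was 1 fall, and the call was lost for HLA-B without miR-130a replicate 2 and for HLA-E without miR-130a replicate 2 or scramble replicate 2. The other probe set of HLA-F changed by -0.02, against 0.87 for the one used. The HLA genes are near-identical in places, so their probe sets may share signal.

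Outside the interferon lists, a second class of transcripts stood out in AGO2-bound RNA after miR-130a against every other AGO2-bound group. In all, 299 genes (4.41%) were at least 2-fold higher after miR-130a than after each of scramble, miR-203 and miR-205, a count chosen after the values were seen, and 275 of them were on no interferon list. These comparisons share the miR-130a arrays. Against miR-205 alone 25.3% of genes were higher and 23.8% lower, and against miR-203 alone 29.0% and 26.0%. Of the 275, 60 were lower in total RNA (21.8%) and 53 higher (19.3%), where over all genes 13.3% were lower and 15.9% higher. PLAAT4 and DDX60, known as interferon-inducible, were among them and rose by 4.65 and 3.29 in total RNA.

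ACAA1, a thiolase of fatty acid oxidation in peroxisomes, led this class. It read 11.69, 12.15 and 11.75 in AGO2-bound RNA after miR-130a and 7.56, 7.63 and 7.79 after scramble, a rise of 4.21 (SE 0.19, adjusted p = 1.3e-09), or 18.5-fold higher. Its levels after miR-203 (7.92, 8.05 and 7.85) and miR-205 (8.72, 8.86 and 8.14) lay above scramble and far below miR-130a, and its other probe set rose by 4.14. In total RNA ACAA1 fell from 8.82, 8.85 and 8.78 to 8.09, 7.88 and 7.88, a change of -0.86 (SE 0.09, adjusted p = 2.4e-05), without overlap. NUDT9, a mitochondrial ADP-ribose pyrophosphatase, had the same pattern. It read 9.54, 10.03 and 9.87 against 5.53, 5.73 and 6.07 in AGO2-bound RNA (change 4.04, SE 0.18) and fell by 1.01 in total RNA (SE 0.07, adjusted p = 1.1e-06).

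RNF7, a RING subunit of cullin ubiquitin ligases, read 10.31, 10.31 and 10.12 after miR-130a and 6.36, 6.16 and 6.87 after scramble (change 3.78, SE 0.18), and it fell by 0.78 in total RNA. PRPSAP2, a partner of the enzyme that makes phosphoribosyl pyrophosphate, read 9.35, 8.68 and 8.37 against 4.99, 4.88 and 4.94 (change 3.86, SE 0.21) and fell by 0.74 in total RNA. GCLM, the modifier subunit of the enzyme that limits glutathione synthesis, read 9.76, 10.49 and 9.69 against 6.41, 6.43 and 6.60 (change 3.50, SE 0.19) and fell by 0.47 in total RNA. The arrays of the AGO2-bound groups did not overlap for any of these 3 genes. RPS6KA5, the kinase MSK1, rose by 3.14 against scramble and fell by 0.77 in total RNA, and TMSB4X, which binds actin monomers, rose by 2.87 and fell by 0.75. TMSB4X has near-identical copies in the genome, which its probe set may also read. MOCOS, TBPL1 and ABITRAM, which complete the 10 largest such gaps, rose by 2.48, 2.59 and 2.43 in AGO2-bound RNA and fell by 0.96, 0.75 and 0.92 in total RNA. ABITRAM read 8.05, 7.99 and 7.52 after miR-130a and 8.27, 8.34 and 7.98 after miR-203, so that these 2 groups overlap.

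Others of the class rose with no called fall in total RNA. CARHSP1, a protein that binds messenger RNA of TNF, read 8.90, 8.62 and 7.87 against 4.51, 4.21 and 4.67 (change 4.0, SE 0.22) and changed by 0.22 in total RNA (adjusted p = 0.31). ATP5F1E, the epsilon subunit of ATP synthase, rose by 3.02, ARL3, a small GTPase of the cilium, by 2.98, and NMT2, which attaches myristate to proteins, by 2.87. CHEK2, the checkpoint kinase, whose partial copies in the genome may share signal, read 6.23, 6.35 and 5.65 against 2.59 on each scramble array (change 3.48, SE 0.19), and it rose by 1.86 in total RNA as well. The cell cycle genes CCNB1 and MCM10 rose by 2.86 and 2.77, with total RNA changes of 0.40 (adjusted p = 0.088) and 0.05 (adjusted p = 0.87). Of the 25 largest rises of the class, 19 have a promoter in the table and 1 of these holds the interferon element pattern (5.26%).

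**Figure D3:**
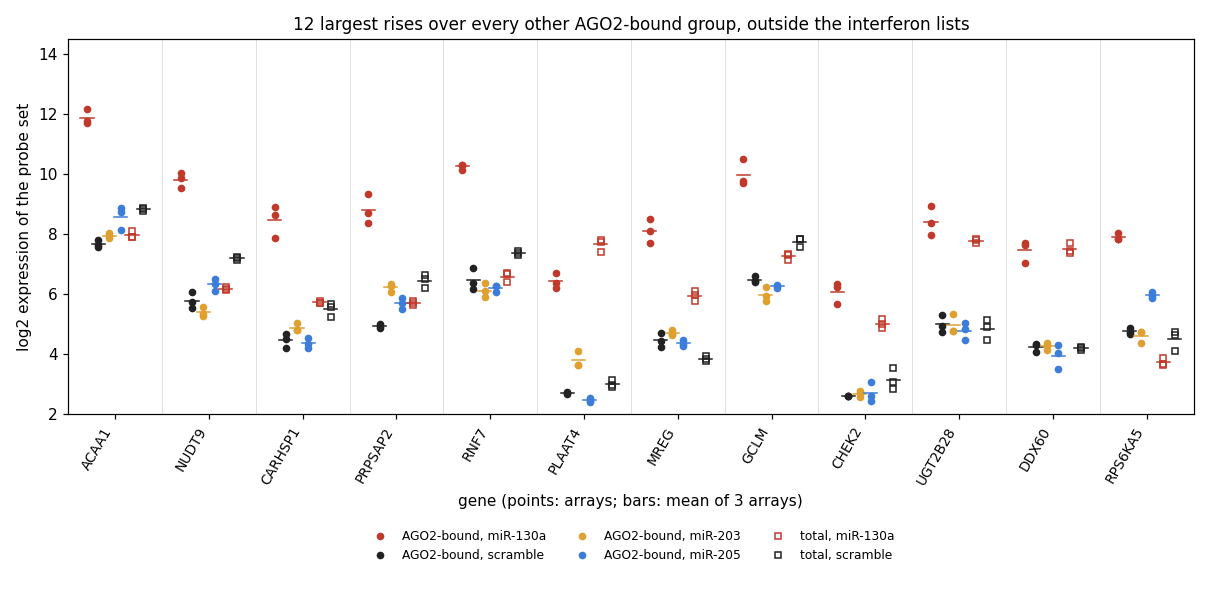
Log2 level (y axis) on each array for the 12 genes outside the interferon lists (x axis) with the largest rises among those at least 2-fold above every other AGO2-bound group; filled circles are AGO2-bound and open squares total RNA, with bars for means of 3 arrays. The AGO2-bound miR-130a arrays lie above every other AGO2-bound array in each gene; in ACAA1, NUDT9, PRPSAP2, RNF7, GCLM and RPS6KA5 the total RNA level is lower after miR-130a than after scramble.

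Across all genes the changes in the 2 kinds of RNA went together in some genes and apart in others. Of the 1259 rises in AGO2-bound RNA, 256 (20.3%) also rose in total RNA and 191 (15.2%) fell there, against 15.9% and 13.3% of all genes. These are 23.7% of the rises and 21.2% of the falls in total RNA. Of the 1350 falls in AGO2-bound RNA, 220 (16.3%) fell in total RNA and 206 (15.3%) rose there. The 2 comparisons share no arrays. Of the 1259 rises, 812 (64.5%) had no call in total RNA.

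Falls in AGO2-bound RNA were also placed against the other transfections. Over all genes the 3 scramble arrays lay above the 9 other AGO2-bound arrays in 8.8% and below them in 3.4%, and the miR-130a arrays above the 9 others in 11.8% and below them in 7.4%. The counts that follow are of genes already chosen for a gap between miR-130a and scramble, and describe them only. Among the 390 falls of at least 2-fold, the 3 scramble arrays lay above all 9 other AGO2-bound arrays in 245 (62.8%), and the 3 miR-130a arrays lay below the 9 others in 108 (27.7%). Among the 520 rises of at least 2-fold, the miR-130a arrays lay above the 9 others in 388 (74.6%) and the scramble arrays below them in 61 (11.7%).

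STAM, an adaptor that sorts ubiquitinated receptors into endosomes, had the largest fall. It read 5.24, 4.91 and 5.12 after miR-130a and 10.76, 11.12 and 10.67 after scramble, a change of -5.76 (SE 0.15, adjusted p = 1.4e-11), or 54.1-fold lower. After miR-203 and miR-205 it read between 6.25 and 7.41, above miR-130a and below scramble, and it was among the 23 genes (0.339% of those tested) at least 2-fold lower after miR-130a than after each other transfection. In total RNA STAM changed by 0.28 (adjusted p = 0.12). TSG101, an ESCRT-I subunit that receives such cargo, read 7.02, 6.94 and 7.02 against 10.22, 10.93 and 10.95 (change -3.71, SE 0.18). After miR-205 TSG101 read 7.09, 6.99 and 6.95, with a difference of -0.02 to miR-130a (SE 0.18, adjusted p = 0.94), and the scramble arrays lay above the 9 others.

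CCNG1, cyclin G1, a target of p53, read 9.35, 8.96 and 9.40 after miR-130a and 13.30, 13.51 and 13.34 after scramble (change -4.15, SE 0.17), with miR-203 and miR-205 arrays between 8.78 and 9.24. PFDN2, a subunit of the chaperone prefoldin, read 7.64, 7.17 and 7.32 against 11.43, 11.79 and 11.89 (change -4.32, SE 0.19). WASHC5, of the WASH complex that forms actin on endosomes, fell by 4.16, ATP5MC1, a subunit of the ATP synthase rotor, by 3.70, and DPM2, of the mannosyl donor synthase of the ER, by 3.83. DPM2 and CCNG1 rose in total RNA by 0.91 and 0.30. BLNK, an adaptor of B-cell receptor signalling, read 3.67, 3.69 and 3.76 against 6.89, 7.97 and 8.22, and miR-203 was also high at 6.31, 7.27 and 6.85. The other large falls, of SMIM7, TRIP4, TMEM126B, SH3BGRL3, SNX7, KBTBD4 and ETS2, were between 3.43 and 4.58 in size.

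**Figure D4:**
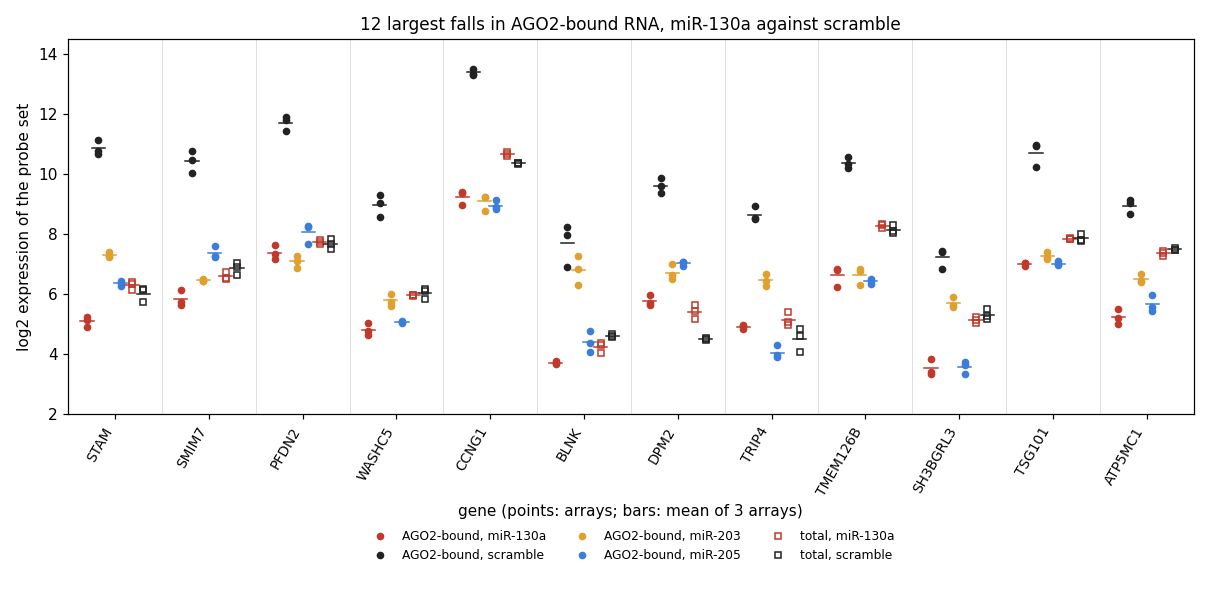
Log2 level (y axis) on each array for the 12 largest falls (x axis), with symbols as in the plot of gained transcripts. The AGO2-bound scramble arrays (black circles) lie above those of miR-130a and miR-205 in each gene, on average by 3.70 or more above miR-130a and by 5.76 in STAM, while the 2 total RNA groups differ by at most 0.91, in DPM2.

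The 23 genes lowest after miR-130a were few and their falls smaller than those above, STAM apart. BCKDHA, a subunit of the branched-chain keto acid dehydrogenase, read 4.10, 3.54 and 3.58 after miR-130a and 6.54, 6.75 and 6.41 after scramble (change -2.83, SE 0.21). HAX1, a mitochondrial protein that restrains cell death, fell by 2.62 and also fell by 0.46 in total RNA (adjusted p = 0.00067). YAP1, the coactivator of the Hippo pathway, read 4.23, 4.38 and 4.47 against 5.92, 6.41 and 6.10 (change -1.78, SE 0.16) and changed by -0.01 in total RNA (adjusted p = 0.99). PRMT5, an arginine methyltransferase, fell by 2.00, and SMARCE1, of the SWI/SNF remodelling complex, by 1.14. Of the 23, 3 fell (13.0%) and 2 rose (8.7%) in total RNA, where over all genes 13.3% fell and 15.9% rose, shares that do not set the 23 apart.

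Reported targets of the family of miR-130 and miR-301 did not move together. Of 31 on the array 13 were tested, and 4 of these rose and 1 fell in AGO2-bound RNA. These are 30.8% and 7.69%, against 18.6% and 19.9% of all genes tested, and the median change was 0.08 (all genes -0.05). SMAD4, the common mediator of TGF-beta signals, read 6.18, 6.08 and 6.25 after miR-130a and 5.13, 4.67 and 4.38 after scramble (change 1.44, SE 0.17, adjusted p = 1.2e-05). It changed by 0.18 in total RNA (adjusted p = 0.38) and exceeded that change by 1.27 (adjusted p = 7.3e-05). ACVR1, a BMP receptor, read 7.94, 8.20 and 8.38 against 7.45, 7.57 and 7.52 (change 0.66, SE 0.16) and exceeded its total RNA change by 1.00. KLF4 rose by 2.06 in AGO2-bound RNA and by 3.45 in total RNA, and IRF1, an interferon-inducible factor counted above, is also on this list. With the replicate block, or without scramble replicate 1, 2 of the 13 fell, and with no filter 2 of the 31. ATXN1 read 2.65, 2.66 and 3.05 against 3.76, 4.39 and 4.19, a change of -1.33 in AGO2-bound RNA, and it fell by 0.89 in total RNA (adjusted p = 0.00021). DICER1, the nuclease that makes mature microRNAs, read 9.02, 9.74 and 9.75 against 9.35, 9.40 and 9.79 (change -0.01, adjusted p = 0.97) and rose by 1.06 in total RNA.

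Among 22 genes of microRNA processing and silencing, 7 rose and 3 fell (31.8% and 13.6%, median 0.00), against 18.6% and 19.9% of all genes tested. AGO3, an Argonaute paralog, read 5.62, 5.45 and 5.20 against 3.92, 3.97 and 3.89 (change 1.5, SE 0.18, adjusted p = 2.1e-05), without overlap. PRKRA, a partner of Dicer, rose by 1.02 and fell by 0.75 in total RNA, and the helicase DDX17 and LSM14A, of decay bodies, rose by 0.52 and 0.66; DDX17 was not called on the mean of its 4 probe sets. DROSHA, the nuclear nuclease of microRNA precursors, CNOT7, a deadenylase, and DCP1A, a decapping factor, fell by 0.67, 0.47 and 0.72. The count of rises was 3 without miR-130a replicate 2 or scramble replicate 2 and 4 without miR-130a replicate 3, and the count of falls was 0 without miR-130a replicate 2 or scramble replicate 2, or with no filter.

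Larger gene groups are to be read against the shares of all genes in AGO2-bound RNA, 18.6% higher and 19.9% lower, and in total RNA, 15.9% and 13.3%. Of 48 mitochondrial ribosomal proteins tested, 16 rose and 7 fell (33.3% and 14.6%, median 0.26), the falls being no more frequent than over all genes, with MRPS35 up by 2.58 and MRPL28 by 2.39, and MRPL12 down by 1.78 and MRPL22 by 1.76. In total RNA 2 of the 48 rose and 7 fell. Respiratory complex I had 10 rises and 4 falls among 28 genes (35.7% and 14.3%; 7 falls with all 24 arrays in the fit), with NDUFA1 up by 2.16 and NDUFV1 by 2.14. Of 23 antioxidant and glutathione genes, 9 rose and 2 fell (39.1% and 8.7%); SOD1, which dismutates superoxide, rose by 1.94 and CAT, catalase, by 0.83, while HMOX1, heme oxygenase, fell by 1.52 and by 2.13 in total RNA. The 9 became 5 without scramble replicate 2, and the 2 became 0 without miR-130a replicate 1 or 2 or scramble replicate 2 or 3. Of 24 RAS-MAPK genes, 9 rose and 2 fell (37.5% and 8.33%), with RPS6KA3 up by 1.64 and SOS1 by 1.27; the 9 became 4 without miR-130a replicate 2 and 5 without scramble replicate 1 or with no filter, and the 2 became 4 with the replicate block and 1 without any single array other than miR-130a replicate 3.

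Groups with more falls than rises included endosomal sorting. Of 36 ESCRT, retromer and WASH genes, 12 fell and 5 rose (33.3% and 13.9%, median -0.25), with IST1 down by 2.72 beside STAM, WASHC5 and TSG101; the 5 became 3 without miR-130a replicate 2 or 3 or scramble replicate 3. Of 158 ZNF genes 43 fell and 21 rose (27.2% and 13.3%, median -0.12), ZNF239 by 2.53 downward and ZNF443 by 2.02 upward. Of 34 androgen receptor coregulators 10 fell and 5 rose (29.4% and 14.7%, median -0.25): NCOA6 and MED1 fell by 1.84 and 1.19, while PRMT1 rose by 3.06. PRMT1 read 10.14, 10.21 and 9.73 after miR-130a, 7.15, 6.66 and 7.09 after scramble, and 10.36, 10.23 and 9.27 after miR-205. Unlike these groups, the 20 COP9 signalosome and NEDD8 genes had more rises than falls, 8 and 6 (40% and 30%). RNF7 rose by 3.78, while COPS3 fell by 3.33 and COPS5 by 3.25. Cytosolic ribosomal proteins had 11 rises and 16 falls among 55 genes (20% and 29.1%, the rises near the share of all genes), RPL11 by 3.15 downward and RPL3 by 1.88 upward, and 0 rises and 2 falls in total RNA; their pseudogenes may share signal with these probe sets.

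Other groups had more calls in total RNA than in AGO2-bound RNA. Their total RNA counts were taken in the main setting only, and the split of total RNA calls depends on the scaling. Of 28 genes of ATF4 and the amino acid response, 25 fell and 1 rose in total RNA (89.3% and 3.57%, median -0.79), against 9 falls and 4 rises in AGO2-bound RNA (32.1% and 14.3%, median -0.24). TRIB3, a pseudokinase of this response, fell from 8.71, 8.48 and 8.95 to 7.46, 7.55 and 7.62 in total RNA and rose from 7.93, 7.98 and 8.21 to 10.04, 9.79 and 9.65 in AGO2-bound RNA. CEBPG, a partner of ATF4, fell by 1.04 in total RNA and rose by 2.24 in AGO2-bound RNA. Of 43 cell cycle genes, 16 rose (37.2%) and 0 fell in total RNA, and 10 rose and 3 fell in AGO2-bound RNA (23.3% and 6.98%); the 10 became 6 without scramble replicate 3 and the 3 became 5 with the replicate block. KIF20A, a kinesin of cytokinesis, fell by 2.01 in AGO2-bound RNA and rose by 0.73 in total RNA. SQLE, squalene epoxidase of cholesterol synthesis, fell by 2.28 and rose by 1.10 in the same way. Of 24 androgen-responsive genes, 9 rose (37.5%) and 0 fell in total RNA. In AGO2-bound RNA 3 rose and 5 fell (12.5% and 20.8%), near the shares of all genes, and 5 rose on the mean of each gene's probe sets or with no filter.

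**Figure D5:**
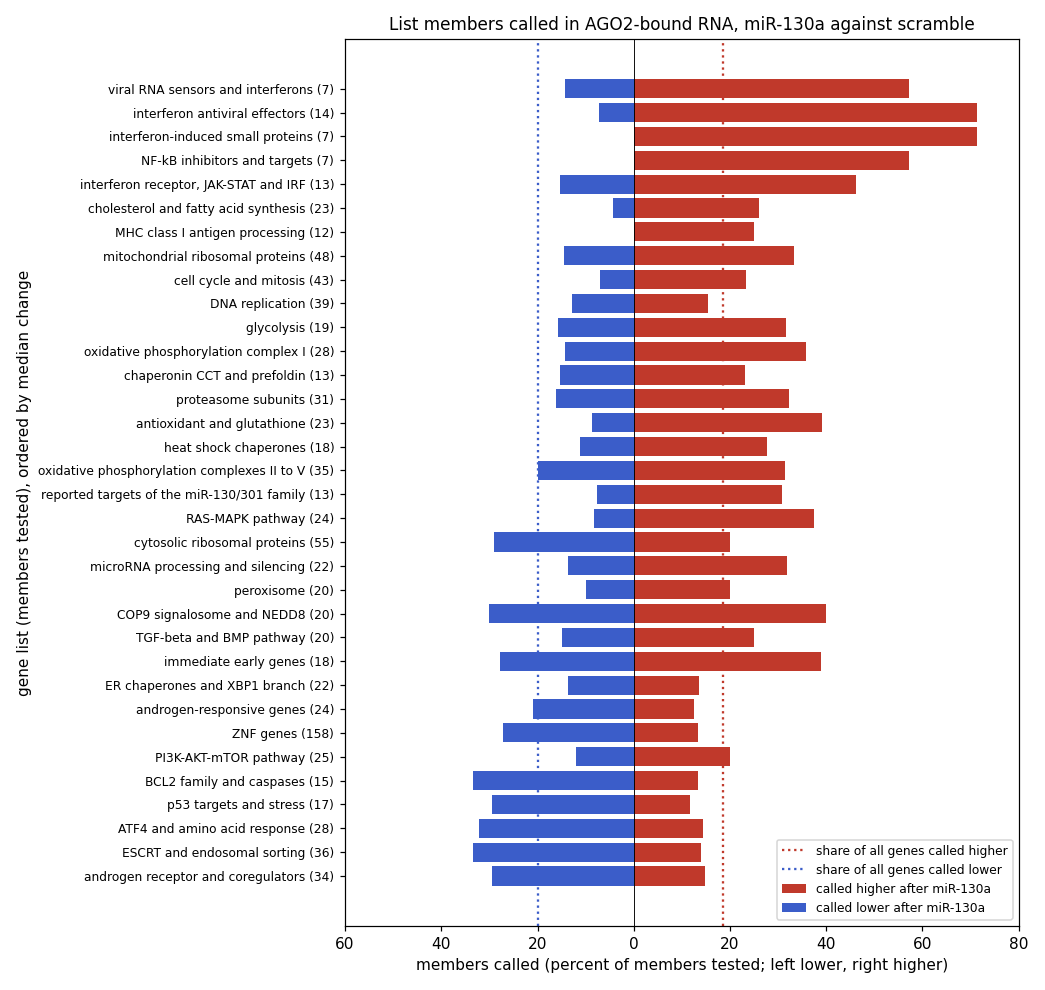
Share of tested members called higher (bars to the right, percent) and lower (bars to the left, percent) in AGO2-bound RNA after miR-130a against scramble, for each gene list with at least 7 tested members (y axis, number tested in brackets, ordered by median change). Dotted lines mark the shares over all genes, 18.6% higher and 19.9% lower; interferon lists lie at the top, where the filter favours genes that rose.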

How the data were processed

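The arrays were Affymetrix Human Genome U133A 2.0 arrays, per the labels' protocols. What the authors deposited is a log2 expression value for each probe set, and no earlier step was repeated. R 2.9.0, GCRMA and RMA are named in the submitters' processing notes without an order of use, and the annotation used is not given in the sources used here. Of 22277 probe sets, 19064 carried a single symbol in the platform annotation and 1043 more than one, while 2108 are unnamed here and 62 are controls; 19052 were matched to the reference table by gene ID. Each of the 11963 genes was read from the brightest of its probe sets by mean over the 24 arrays (4310 genes offered a choice). Testing was limited to the 6782 genes with a mean of at least 2.85, the median probe set. Where all 3 arrays of a group lay within 0.05 of the floor, a change is a lower bound. Near the floor lay 40.4% to 40.7% of probe sets after miR-130a and 40.9% to 41.5% after scramble, which compresses changes of dim transcripts. For arrays no depth applies, and their number, 3 per group, limits the precision.

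Linear models were fitted with lmFit and eBayes of limma 3.58.1 under R 4.3.3. The 12 AGO2-bound and the 12 total RNA arrays were fitted apart, and the difference between the AGO2-bound and total RNA changes was fitted on all 24. The genes named are the 15 strongest changes each way whose arrays did not overlap, the members with the smallest p in each of 41 gene lists, any interferon, target or microRNA processing gene, and the 10 largest gaps between a rise in AGO2-bound and a fall in total RNA. The largest genes of the counts against every other transfection were named after their values were seen. The comparison, the lists and the genes were chosen with earlier results of these data known. In the AGO2-bound groups, arrays with replicate number 1 and those with number 3 deviated together (correlations 0.500 and 0.516). Those with number 2 hardly did (0.107), and unlike numbers gave -0.479 to 0. Whether the numbers mark a pairing is not stated in the labels and was not tested. The main test used no pairing. The share of false calls on these arrays, and the share of changed genes that were missed, was not tested. Alternatives changed the filter, the probe set, the scaling, the prior, the weights, the threshold, the arrays fitted, the block and each array in turn. Sites for the microRNA seeds in the transcripts were not analysed here.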

Additional observations from a re-analysis of the deposited data

Results flagged for a closer look

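The following genes are listed because the change after miR-130a differed between AGO2-bound and total RNA, by the interaction test of limma with an adjusted p under 0.05, among the largest rises, the largest falls and the genes that rose in AGO2-bound RNA while total RNA fell. Each value is the AGO2-bound change minus the total RNA change, on the log2 scale, from 3 arrays per group.

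Among interferon transcripts the difference was negative for CXCL10 at -2.43, IFIT2 at -1.42 and IFIT3 at -1.36, and positive for ISG15 at 0.78. It was -2.41 for CXCL11, -1.88 for RSAD2, 3.61 for DHX58 and 1.95 for IFNB1 as measured. In these 4 genes the AGO2-bound scramble arrays lay at the floor, so the AGO2-bound changes are lower bounds and the differences have no exact size.

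Among transcripts that gained AGO2 while their total RNA fell, the difference was 5.07 for ACAA1, 5.04 for NUDT9, 4.60 for PRPSAP2, 4.57 for RNF7, 3.97 for GCLM and 3.91 for RPS6KA5. It was 3.62 for TMSB4X, 3.44 for MOCOS, 3.34 for TBPL1 and 3.34 for ABITRAM.

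Each of the 15 largest falls differed as well. The difference was -6.04 for STAM, -4.74 for DPM2, -4.45 for CCNG1, -4.40 for PFDN2, -4.37 for TRIP4 and -4.32 for SMIM7. It was -4.19 for SNX7, -4.09 for WASHC5, -3.85 for TMEM126B, -3.74 for KBTBD4 and -3.67 for TSG101. The smallest of these differences were -3.62 for BLNK, -3.62 for ETS2, -3.58 for ATP5MC1 and -3.54 for SH3BGRL3.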

How the results depend on the processing

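At an adjusted p under 0.01 the AGO2-bound comparison called 1736 genes (863 lower) in place of 2609, the total RNA comparison 1064 in place of 1984, ESCRT members higher 3 and interferon members lower 1. At least 2-fold, the AGO2-bound comparison called 910 (520 higher, 390 lower), total RNA 156, the difference between the 2 changes 1074, ESCRT members 1 higher and 7 lower, ZNF genes 6 higher and 12 lower, mitochondrial ribosomal proteins 4 lower and interferon members 2 lower. These follow from the stricter threshold. With a mean level of at least 5, which tests fewer genes, 197 genes were higher than after each other transfection, ZNF genes were 11 higher and 19 lower, and interferon members 11 higher. With all 24 arrays fitted together total RNA called 1202, and with no filter 2 interferon members were lower; the cause was not tested. With the replicate block the AGO2-bound comparison called 3318 genes (1555 higher, 1763 lower). Apart from the changes given beside the results, the block changed no call of a named gene. Leaving out 1 array in turn gave 2013 to 2348 AGO2-bound calls, 1461 to 1900 in total RNA and 2017 to 2307 for the difference. It gave 3 to 6 ESCRT members higher, 1 to 4 interferon members lower and 30 to 34 interferon members higher. In AGO2-bound RNA quantile normalization gave 1196 higher and 1446 lower and median centring 1241 and 1384. Of 738 list counts under alternatives of scaling, filter, probe set, prior, weights, arrays or block, 52 moved by over 1.5 times. Of the 126 genes named, 14 lost their call in some alternative other than the 2-fold limit, and ZC3HAV1 turned from -0.22 to 0.47 on the mean of its probe sets. Seed sites were planned and not run. Of the 32 interferon members called higher, 5 lay at the floor after scramble, and their changes are lower bounds.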
